A study of Mus musculus with 4 samples.

Results

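The Hippo kinase cascade is the set of proteins that holds YAP in check, and the YAP binding sites at 10 of its genes were described in mouse epidermis: Stk3, Stk4, Sav1, Lats1, Lats2, Mob1a, Mob1b, Nf2, Wwc1 and Wwc2. A YAP peak was assigned to one of these genes when its summit, the highest point of the peak, lay inside the gene's span in build mm10 or within 100 kb of it with no protein-coding gene nearer. By this rule 33 of the 36576 peaks of wild-type (WT) epidermis and 18 of the 14879 peaks of knockout (KO) epidermis belonged to the 10 genes.

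The assay was ChIP-seq, in which DNA bound by YAP is precipitated and sequenced, on epidermal cell suspensions from adult mice of 18 to 25 weeks, all killed at Zeitgeber time 4, which is 4 hours after lights on. One group was Bmal1 WT and the other Bmal1 KO by the genotype label, called Bmal1cKO in the treatment protocol. BMAL1 is the clock activator that pairs with CLOCK. Which promoter or cell type drives the deletion is not stated by the sources used. The series holds a YAP ChIP and an input library for each genotype. Each ChIP has 1 peak list, named as pooled, and the inputs were not analysed here. A single list per genotype leaves no replicates, and therefore no p-value is given. Intervals below cover counting error only.

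In the Hippo cascade, the MST kinases (encoded by Stk3 and Stk4) with their scaffold SAV1 activate the LATS kinases (Lats1 and Lats2) with their MOB1 cofactors (Mob1a and Mob1b). Active LATS phosphorylates YAP and keeps it out of the nucleus, where YAP would otherwise bind DNA through TEAD proteins. NF2, also called merlin, and the WWC proteins (WWC1 is also called KIBRA) act upstream and bring LATS to the membrane. In skin, YAP is known for its role in the growth of basal keratinocytes. LATS2 and NF2 are known in other systems as products of YAP target genes, a feedback on YAP itself.

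Peaks lay over the annotated start of most of these genes. The starts whose peak was also called in KO carried a TEAD motif in the promoter window, which at Mob1a lay outside the KO peak. The RefSeq promoter table (build GRCm38.p6, the same as mm10) gives windows from 250 bases before to 50 after a start for 9 of the 10 genes, with Stk3 missing. Of these 9 genes, 8 had a WT peak over a start, against 32.6% of all protein-coding genes in that table. Of the same 9, 4 had a KO peak there, against 8.25% of all. These start peaks were 8 of the 33 WT peaks, where 14.5% of all WT peaks lay over a start, and 4 of the 8 overlapped a KO peak, against 34.6% of all WT peaks over starts. The windows were searched on both strands for GGAATG (the core bound by TEAD proteins), TGANTCA (AP-1) and CACGTG (the E-box bound by BMAL1 with CLOCK). These 3 motifs do not overlap one another in the windows of the 10 genes.

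The sequences shown are those of the starts with a motif match under a WT peak. Each reads 5′ to 3′ on the gene's own strand, with motif matches in capitals. For Wwc2, Mob1a and Stk4 the bases lie upstream of the gene span; for Lats2 and Sav1, where longer transcripts reach past the start, 30 bases around the match are given.
Wwc2 (chr8:47990545-47990794, minus strand): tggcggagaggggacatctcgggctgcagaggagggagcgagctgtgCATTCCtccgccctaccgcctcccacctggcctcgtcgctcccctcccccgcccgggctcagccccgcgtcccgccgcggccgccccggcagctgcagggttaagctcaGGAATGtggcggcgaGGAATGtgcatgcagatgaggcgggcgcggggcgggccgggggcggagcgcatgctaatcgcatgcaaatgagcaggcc
Mob1a (chr6:83325789-83326033, plus strand): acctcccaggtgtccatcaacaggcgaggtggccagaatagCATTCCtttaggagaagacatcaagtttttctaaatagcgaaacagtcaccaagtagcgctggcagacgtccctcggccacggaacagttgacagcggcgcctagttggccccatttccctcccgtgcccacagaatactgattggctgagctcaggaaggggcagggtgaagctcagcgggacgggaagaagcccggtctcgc
Stk4 (chr2:164073888-164074112, plus strand): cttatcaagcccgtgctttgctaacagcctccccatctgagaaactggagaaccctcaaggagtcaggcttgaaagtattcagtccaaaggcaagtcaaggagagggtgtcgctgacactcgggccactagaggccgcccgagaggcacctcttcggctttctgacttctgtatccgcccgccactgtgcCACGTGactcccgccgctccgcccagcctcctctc
Lats2 (chr14:57746109-57746138, minus strand): ggggtCACGTGacgcccgtGGAATGccaac
Sav1 (chr12:69987091-69987120, minus strand): cggctttcccagCATTCCcagcggcgcggg

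Wwc2 held 3 GGAATG matches, on both strands. The closest of them began 79 bases before the start and its centre lay 4 bp from the WT summit. The next began 94 bases before the start, in the same orientation, with its centre 20 bp from the summit. Lats2 held an E-box that began 10 bases before the start and a TEAD match that began 4 bases after it, with centres 8 and 22 bp from the WT summit. Sav1 held a match on the opposite strand, 46 bp from the WT summit. In Mob1a the match was remote from the WT summit, at 294 bp. It began 209 bases before the start, inside the WT peak. The KO peak ran from -27 to 342 bp relative to the start and did not cover it. Stk4 held no TEAD match, but its E-box was centred on the WT summit, at a distance of 0 bp. That Stk4 peak was the least supported of the 33, with the lowest deposited −log10 q, 4.14.

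The 4 starts with a TEAD match, those of Lats2, Wwc2, Mob1a and Sav1, were the 4 whose WT peak overlapped a KO peak. The 4 starts under a WT peak without a match, those of Lats1, Stk4, Wwc1 and an internal start of Nf2, had no KO peak. At Lats1 and Mob1a the WT summit fell outside the searched window, 389 and 87 bp downstream of the start. The split by motif was also a split by strength: the starts with a match had 241, 221, 94 and 73 WT reads and those without 54, 47, 46 and 45, so motif and strength cannot be told apart here. Across all promoter windows under a WT peak the contrast was smaller. There, 48.3% of 865 windows with GGAATG had a peak that was kept (95% interval 44.9 to 51.7), against 33.2% of 5528 windows without it (32.0 to 34.5). The 6393 windows lay under 5315 peaks. Windows that share a peak were counted separately, so these intervals are too narrow. The windows with the motif also lay under stronger peaks, with a median of 69 WT reads at the summit against 60. The part of peak strength in this contrast was not tested. This comparison was chosen after the sequences had been seen. For the E-box the kept shares were 34.3% with and 35.4% without.

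GGAATG was present in 13.5% of all 21045 windows and in 13.5% of those under a WT peak. It was present in 4 of the 11 windows of the 10 genes. TGANTCA was absent from all 11, against 7.04% of all windows and 5.38% of those under a WT peak. CACGTG was present in 3, against 7.91% of all windows and 11.8% of those under a WT peak. Of the 8 windows of these genes under a WT peak, 2 held CACGTG. The third E-box window is that of Mob1b, whose start lay under no peak.

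**Figure D1:**
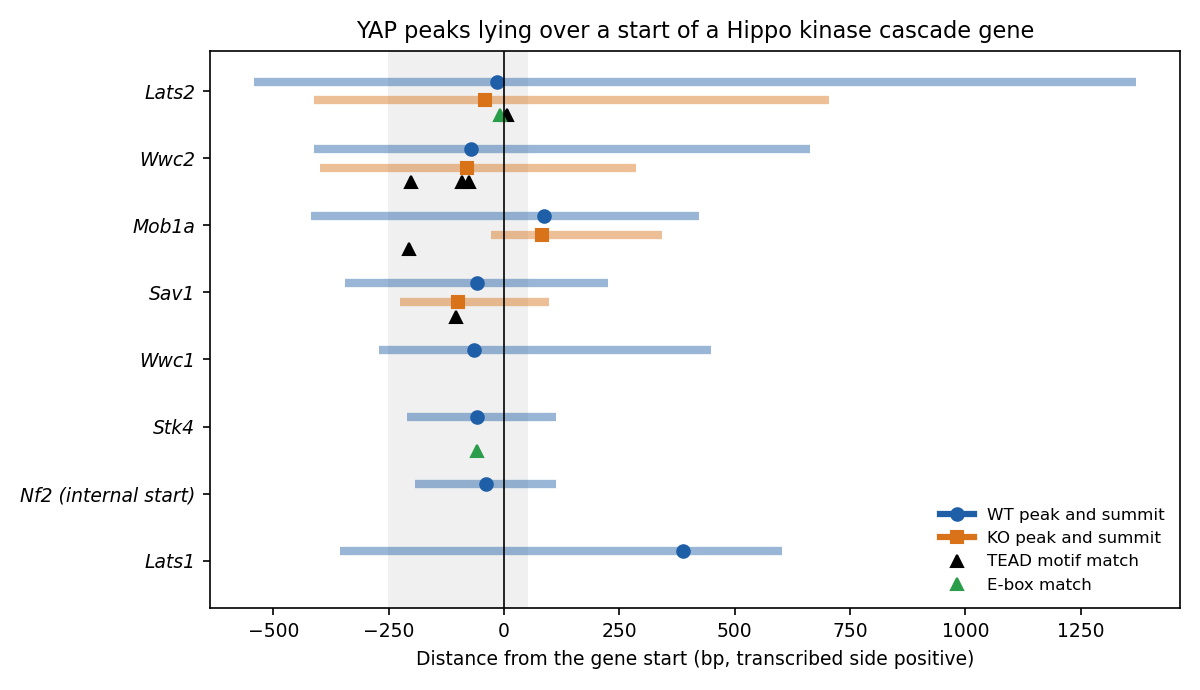
Peaks over the starts of 8 genes, placed by distance from the start (bp, transcribed side positive) and ordered by WT reads. Bars are peak extents, dots and squares are summits of WT and KO, triangles are motif matches, drawn from the searched 300-base window shaded in grey. The 4 genes at the top have a KO peak and a TEAD match, and the 4 below have neither. The Mob1a match lies outside its KO peak.

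The strength of a peak is given as the number of reads at its summit, recovered from the deposited fold and p-value on a scale that is the same for both lists. Evenly spread reads would give 9.63 on this scale. Ratios of KO to WT are of reads above that value. A WT peak sharing 1 bp or more with a KO peak is called kept, and any other WT-only. Over the whole series the median summit had 61 reads in WT and 52 in KO, and the weakest called summit 28 and 29. The keratinocyte list (Krt5, Krt14, Trp63 and others) had WT peaks at 12 of 12 genes. Lists for fibroblasts, T cells, Langerhans cells, melanocytes, endothelium and neurons had WT peaks at 1 of 6, 2 of 4, 0 of 4, 3 of 4, 1 of 4 and 2 of 4 genes. The share over all genes was 53.2%, so the T cell and neuron lists lay near it and the melanocyte list above it. YAP peaks do not measure transcripts, so this is no full check of the labelled tissue.

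Of the 10 genes, 9 had a WT peak, against 53.2% of all 21631 protein-coding genes, and 6 had a kept peak, against 30.0%. The rule counts peaks anywhere in a span, and these shares were not matched for span, which was 16.8 to 280.4 kb here. Kept were 17 of the 33 WT peaks (51.5%, 95% interval 33.5 to 69.2), against 39.1% of all WT peaks, a value within that interval. All 18 KO peaks overlapped a WT peak, as did 99.0% of KO peaks overall. Wwc1 supplied 14 of the 33 WT peaks, and without this gene 7 of 19 peaks were kept (36.8%, 16.3 to 61.6). The MST kinases and SAV1 had 4 WT peaks with 1 kept, the LATS kinases and MOB1 cofactors 5 with 3 kept, and NF2 and the WWC scaffolds 24 with 13 kept.

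**Figure D2:**
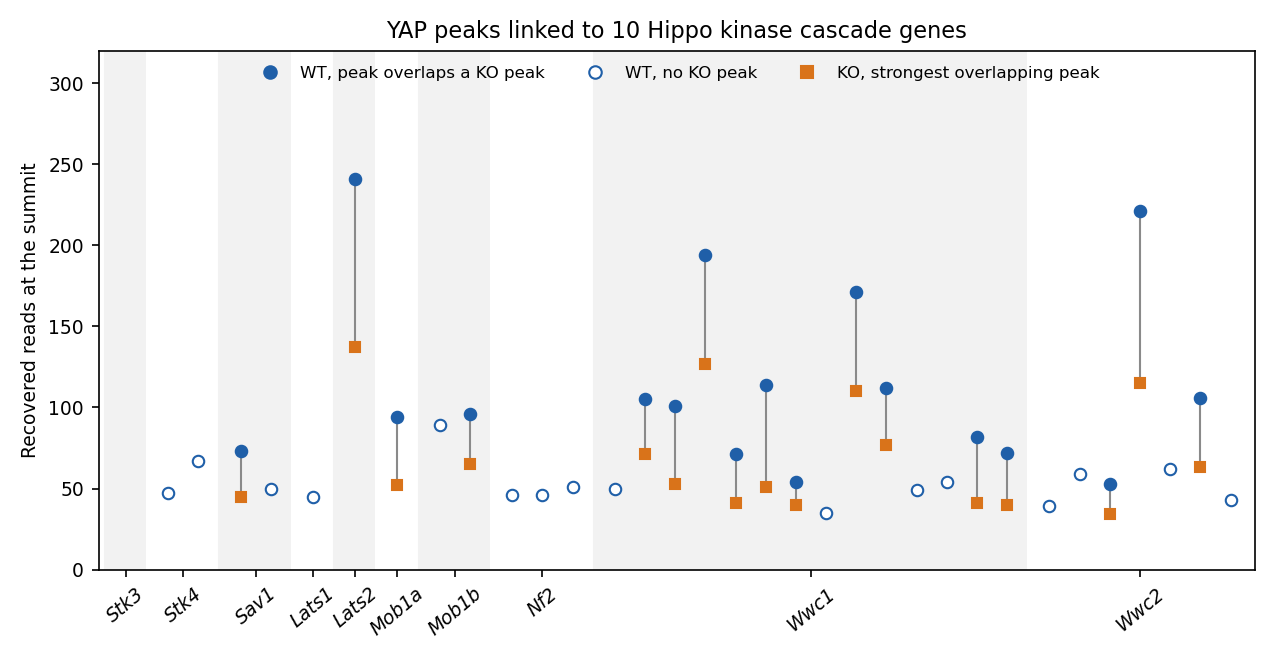
Recovered reads at the summit (y axis) of every WT peak of the 10 genes, ordered within each gene by chromosome position. Filled dots are kept WT peaks joined to their strongest KO peak (squares), and open dots are WT-only peaks. The peaks at Lats2 and Wwc2 with 241 and 221 WT reads are the strongest, and Stk3 has none.

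Among the kinases at the top of the cascade, Stk3 had no linked YAP peak in either list. Its span, on chromosome 15 from 34875499 to 35155882, is the longest of the 10 at 280.4 kb. The nearest WT peak lay 112857 bp away, had 39 reads and was linked to Osr2. Of 615 genes with a span at least as long, 33.3% also had no linked WT peak. Stk4 had 2 WT peaks and no KO peak. The first lay over its start (chromosome 2, 164073928 to 164074250) with 47 reads, over a local background of 17.3 reads. Its deposited fold of 2.58 and −log10 q of 4.14 were the lowest among the 33 peaks. The second, inside the span from 164140148 to 164140658, had 67 reads. Of all WT peaks within 5 reads of this second peak, 37.3% were kept.

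Sav1, the gene of the MST scaffold, had a kept peak over its start (chromosome 12, 69986776 to 69987346). It had 73 WT and 45 KO reads, a log2 KO to WT ratio of -0.84. The other Sav1 peak, 10344 bp outside the span from 69998091 to 69998705, had 50 WT reads and was WT-only.

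Of the LATS kinases, Lats2 held the strongest peak of the 10 genes and Lats1 one of the weakest. The only Lats2 peak (chromosome 14, 57744754 to 57746665) was 1912 bp wide and covered the start, with its summit 16 bp upstream. It had 241 reads in WT and 137 in KO, a log2 ratio of -0.86. Without background subtraction the ratio of reads was 0.568 (95% counting interval 0.458 to 0.704). The local background recovered there was 9.95 reads in WT and 15.4 in KO. The summit also lies inside the span of Gm52140, a predicted protein-coding gene that overlaps Lats2, so the peak belongs to both. Another 4 WT peaks within 100 kb of Lats2 were nearer to Gm52140 or inside it, the strongest with 93 WT and 55 KO reads. The only Lats1 peak (chromosome 10, 7680854 to 7681811) covered the start, with its summit 389 bp downstream. It had 45 reads and was WT-only.

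The MOB1 genes, whose products bind and activate LATS, each had 1 kept peak. At Mob1a it covered the start (chromosome 6, 83325620 to 83326462) with 94 WT and 52 KO reads, a log2 ratio of -0.99. With 50% reciprocal overlap this peak was no longer kept, since the KO peak was 370 bp wide against 843 bp in WT. At Mob1b the kept peak lay 4922 bp upstream (chromosome 5, 88715750 to 88716229). It had 96 and 65 reads and a log2 ratio of -0.64. Mob1b also had the strongest WT-only peak of the 10 genes, 21176 bp upstream from 88699491 to 88699963, with 89 reads. Of all WT peaks within 5 reads of it, 81.3% were kept.

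Nf2, which encodes merlin, had 3 weak WT peaks and no KO peak. They had 46, 46 and 51 reads. One (chromosome 11, 4833022 to 4833327) lay over an internal start, 1 lay inside the span and the strongest lay 11623 bp upstream of the first start. None covered that first start. A stronger peak 27350 bp from the span, with 192 WT and 101 KO reads, was nearer to Zmat5 and is not counted for Nf2.

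Wwc1 was the member with by far the most YAP sites, 14 in WT and 11 in KO. Only 229 of the 21631 genes (1.06%) had 14 or more WT peaks. Of 1437 genes with spans of 100 to 200 kb, the range that holds Wwc1 at 142.1 kb, the median was 2 WT peaks and 4.9% had at least 14. Of the 14 peaks, 13 fell in the 66.2 kb from 5.7 kb upstream to 60.5 kb downstream of the start, and the remaining one lay near the other end of the gene, 141955 bp downstream. Kept were 10 of the 14.

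The strongest Wwc1 peak (chromosome 11, 35924761 to 35926385) lay 54782 bp downstream of the start, with 194 WT and 127 KO reads and a log2 ratio of -0.65. The second (35955353 to 35956130) had 171 and 110 reads and a ratio of -0.69. Its local WT background of 24.5 reads was the highest among the 33 peaks, and the authors' deposited fold there was 6.65, below the 9.23 of the Wwc1 peak with 105 reads. The peak from 35970528 to 35971858 had 112 and 77 reads (-0.60). It was the only one of the 33 that overlapped 2 KO peaks, and the weaker of these had 37 reads.

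Ratios within Wwc1 ranged from -1.33 to -0.55. The lowest was at the peak from 35948259 to 35948987, with 114 WT and 51 KO reads. The peak from 35919790 to 35920685 had nearly as many WT reads, 105, but 71 in KO (-0.64). The counting intervals of their read ratios, 0.315 to 0.628 and 0.493 to 0.923, overlap. The peak over the Wwc1 start had 54 reads and was WT-only, although the peaks 2451 and 5701 bp upstream were kept with 41 and 40 KO reads. The other WT-only peaks of Wwc1 had 35, 49 and 50 reads. Of the remaining kept peaks, those with 101, 71 and 54 WT reads had 53, 41 and 40 in KO.

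Wwc2, the paralogue, showed another layout, with 1 dominant peak at its start and weaker ones on both sides. The start peak (chromosome 8, 47989881 to 47990955) had 221 WT and 115 KO reads, a ratio above background of 0.499 and a ratio of all reads of 0.520 (0.412 to 0.655). Its WT and KO summits lay 8 bp apart. A second kept peak 22957 bp upstream (48013214 to 48013764) had 106 and 63 reads (-0.85). The third, inside the span, had 53 and 34 reads (-0.83). The 4 WT-only peaks had 39, 43, 59 and 62 reads, and 7 WT peaks were linked in all.

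**Figure D3:**
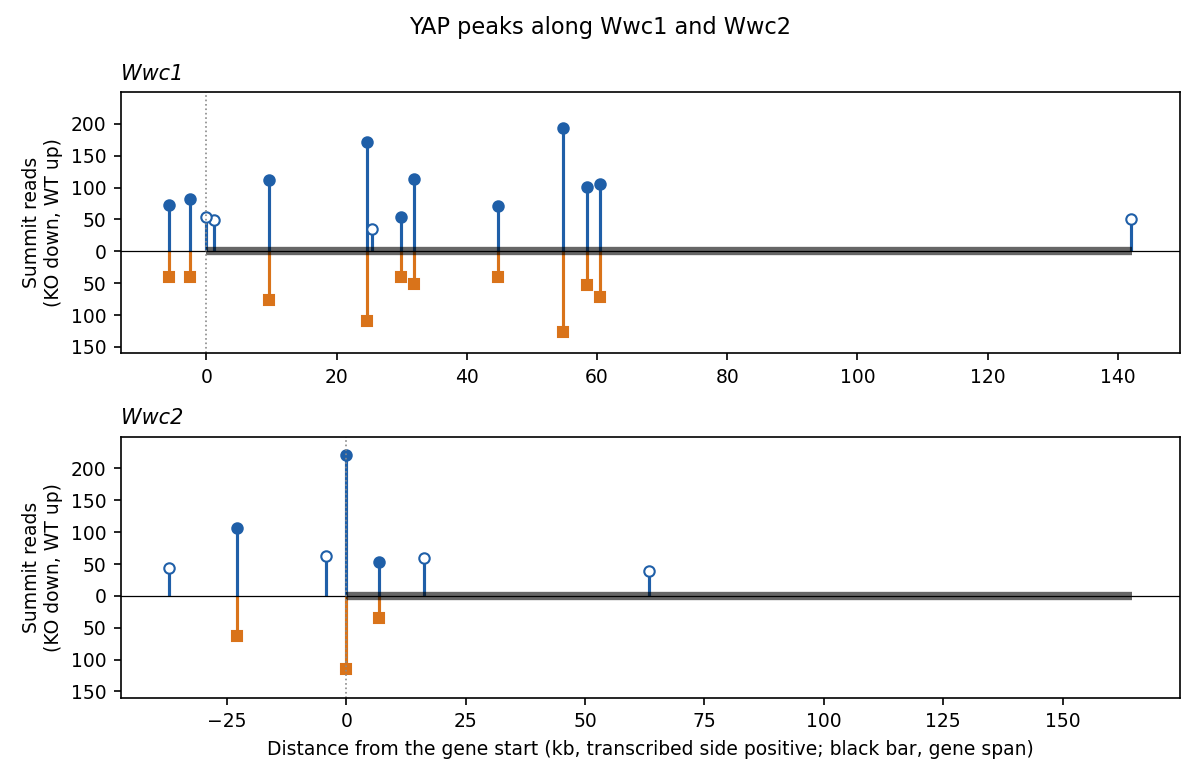
Recovered summit reads of the YAP peaks of Wwc1 (top) and Wwc2 (bottom) against distance from the gene start in kb. WT reads point up and KO reads down, open dots are WT-only peaks and the black bar is the gene span. In Wwc1 13 of 14 peaks lie in the first 60.5 kb or just upstream, and in Wwc2 the start peak of 221 reads stands above the rest.

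Whether a peak of these genes was kept followed its WT strength, as in the whole list. Of the member peaks, 0 of 8 under 50 reads were kept, 2 of 9 from 50 to 69 reads, 6 of 7 from 70 to 99 reads, 5 of 5 from 100 to 149 and 4 of 4 from 150. The shares of all WT peaks in these ranges were 3.1%, 21.3%, 69.4%, 98.1% and 100%. The 17 kept peaks had 53 to 241 WT reads and the 16 WT-only peaks 35 to 89, so the ranges overlap. Absence from the KO list at the weak sites, such as those of Nf2, Lats1 and Stk4, was shared with most WT peaks of that strength.

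**Figure D4:**
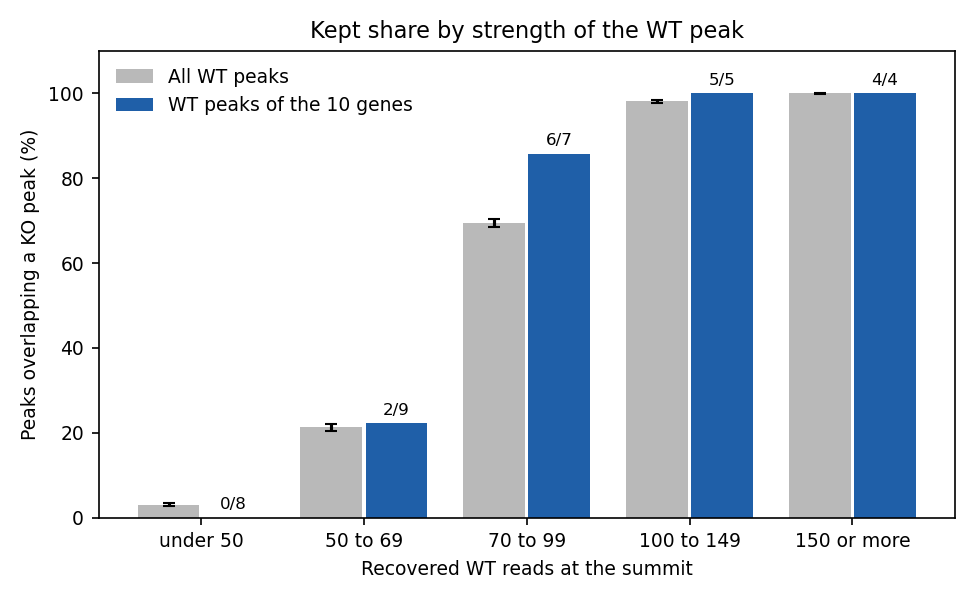
Percentage of WT peaks that overlap a KO peak (y axis), by recovered WT reads at the summit, for all WT peaks (grey, bars are 95% exact intervals) and for the peaks of the 10 genes (blue, with counts). Both rise from near 0 under 50 reads to 100% from 150 reads.

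KO reads were below WT reads at all 17 kept peaks, as at 99.5% of kept WT peaks overall. These 17 peaks belong to 6 of the 10 genes, and 10 of them to Wwc1. Their log2 ratio had a median of -0.85 (range -1.33 to -0.55), against -0.88 over all kept peaks (interquartile range -1.07 to -0.69). At 5 of the 17 the KO reads above background were at most 50% of WT, against 32.9% of all kept peaks. Both values lie near those of the whole list. A ratio exists only where a KO peak was called, so the 16 WT-only peaks have none. A weak WT peak whose KO signal fell below the calling limit enters neither median. Over all kept peaks the median was -0.28 under 50 WT reads, -0.70 from 50 to 69 and -0.94 from 70 to 99. It was -0.96 from 100 to 149 and -0.80 from 150. The count of 5 depends on the background subtracted. The log2 ratio of the Wwc2 start peak was -1.004, but -0.942 without subtraction and -0.971 with local background. That of the Mob1a peak was -0.994, but -0.854 without subtraction and -1.046 with local background. The counting interval of the read ratio lay below 1 at 15 of the 17 peaks. It reached above 1 at the 2 weakest, in Wwc1 with 54 WT reads and in Wwc2 with 53.

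The ratio of each kept peak was set beside those of all kept peaks of like strength. Kept peaks within 10 reads of the Wwc2 start peak had a median log2 ratio of -0.72, and 5.2% of these 153 peaks were lower than it. For the Lats2 peak the median was -0.62 over 65 such peaks, and 15.4% were lower than its -0.86. The start peaks of Sav1 and Mob1a lay in the middle, with 55.1% and 47.0% of like peaks lower. Start peaks had lower ratios in the whole list too, with a median of -0.96 over kept peaks at starts and -0.87 over the others, and the 4 kept start peaks of these genes had a median of -0.93. In the other direction, 92.9% of peaks like the Wwc1 peak of 112 reads, 90.8% of those like the one of 105 reads and 90.2% of those like the Mob1b peak were lower. These percentages describe the list and are not tests.

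**Figure D5:**
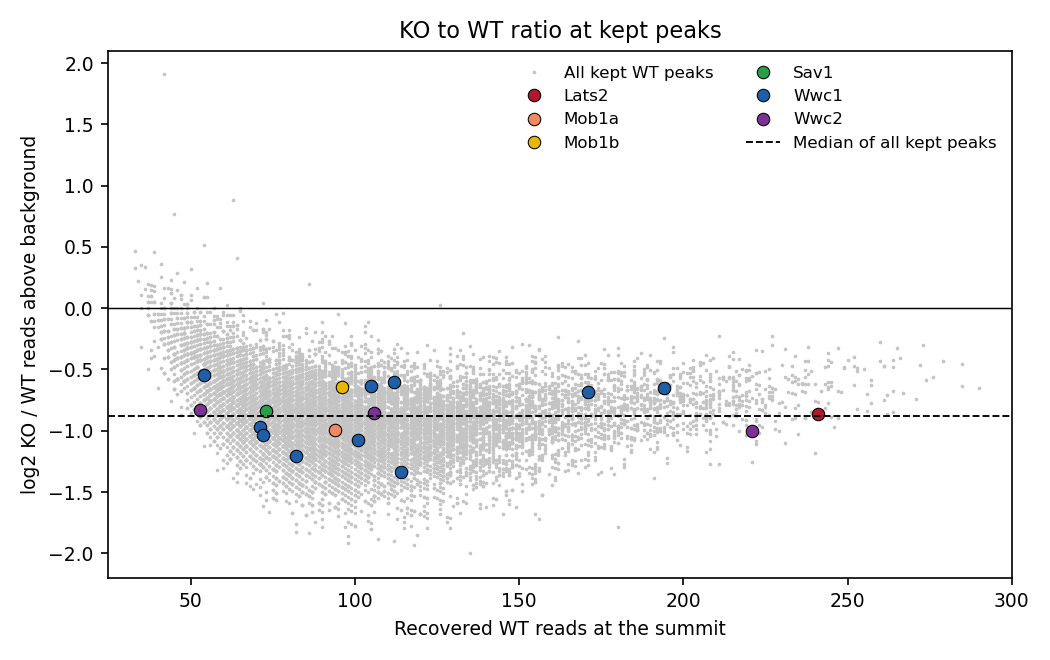
log2 ratio of KO to WT reads above background (y axis) against WT reads at the summit for all 14315 kept WT peaks (grey) and the 17 kept peaks of 6 genes (colours). The dashed line is the median of all kept peaks, -0.88, and all 17 coloured points lie below 0.

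Kept peaks were narrower in KO at all 17 sites, with a median width of 429 bp against 843 bp in WT. KO peaks were narrower at 96.0% of all kept peaks. The summit moved little, by a median of 25 bp and at most 137 bp, against a median of 33 bp for all kept peaks.

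Other genes of the pathway also carried YAP peaks. Of 57 other Hippo pathway genes in 5 lists, 49 had a WT peak and 37 a kept one, and 137 of their 274 WT peaks were kept (50.0%, 43.9 to 56.1). Over all genes, 53.2% had a WT peak and 30.0% a kept one, and 39.1% of all WT peaks were kept. Gene span was not matched here either. Upstream kinases and adaptors had WT peaks at 21 of 25 genes, with strong peaks at Frmd6 (221 WT and 137 KO reads) and Map4k5 (182 and 130). Frmd6 encodes a FERM protein related to merlin, and Map4k5 a kinase that can act on LATS in parallel to MST. Taok1, which encodes a kinase that can activate MST, had 1 WT-only peak of 80 reads, and Scrib, Rassf4, Map4k1 and Map4k2 likewise had 1 WT-only peak each, of 75, 75, 74 and 51 reads. The NDR kinases, the nearest relatives of LATS, had 7 WT peaks of which 1, at Stk38 (121 and 76 reads), was kept. Stk38l had 4 peaks and none kept, the strongest with 64 reads.

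The STRIPAK complex removes phosphate from MST kinases, and 12 of its 13 genes had WT peaks. The strongest were at Strn (192 WT and 145 KO reads), Mob4 (153 and 83) and Stk24 (122 and 69), and WT-only were Stk25 with 63 and Fgfr1op2 with 54 reads. Cytoplasmic restraints of YAP or LATS had WT peaks at 7 of 7 genes, with the strongest at Ajuba (273 and 223), Ptpn14 (208 and 117) and Amotl2 (207 and 130). Amot had 2 WT-only peaks with at most 36 reads. Of the effectors 7 of 10 genes had a WT peak, all 7 with a kept one, led by Tead1 (223 and 141), Vgll4 (211 and 141) and Vgll3 (195 and 121). The median log2 ratio at kept peaks was between -0.98 (effectors) and -0.75 (the single NDR peak).

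The genes most like Lats2 by number of peaks and highest reads in both lists were sought among 6470 genes with a peak in each. They were 1700001C19Rik with 224 WT and 138 KO reads, Reep4 with 224 and 130, and Cnksr1 with 226 and 128. Each had 1 WT and 1 KO peak, and their distances on the log2 scale were 0.106, 0.130 and 0.135.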

How the data were processed

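Per the submitters' processing notes, the tools were Trimmomatic 0.36, SAMtools 1.5 and MACS2 2.1.1 with build mm10, without roles; the aligner, the controls, the filters and what was pooled are not stated there or in the labels. Per the labels, 30 M cells were fixed and each library had 25 to 50 M reads of 51 bp. The authors deposited 1 headerless 10-column list per genotype, with the score (10 times −log10 q, truncated), the fold (a ratio of summit signal to local background), the −log10 p and −log10 q, and the summit offset. The lowest −log10 q was 2.013 (WT) and 2.026 (KO).

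Whole reads and background at each summit were solved from the authors' fold and −log10 p with the caller's Poisson formula and a searched scaling (0.694 for WT, 0.842 for KO). A solution matched within 0.002 for 100% of peaks, against 0.93% and 0.397% with the scaling 3% off; on simulated lists of 36518 and 14859 peaks, made with the same formula, 100% of reads were exact. This formula is an assumption about the files. Gene spans came from RefSeq GRCm38.p6, without exons. The promoter sequences of opposite strands matched in 1891 of 1891 overlapping pairs. Kept counts were the same with bedtools 2.31.1. Intervals are exact Clopper-Pearson at 95%. Named were all 10 genes, their highest, kept and start peaks, the 3 strongest genes and up to 5 genes without a kept peak per pathway list, and the 3 genes most like Lats2; 1 gene that the rule names is not reported here. The motif matches and kept share by motif were searched in promoters only, since no genome sequence of the peaks was used. Python 3.11.15 and scipy 1.17.1 were used. The genes, lists and tests were chosen with earlier results of these data known. Alternatives are in the closing section.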

Additional observations from a re-analysis of the deposited data

How the results depend on the processing

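Of 35 alternative values of the main results, 29 stayed near the reported value. Near meant within the interval for a share and within a factor of 1.5 for a count. For the median log2 ratio it meant within a counting error of 0.245. Only that ratio has a direction, and it stayed negative in every alternative. KO reads were below WT reads at all 17 kept peaks, and every alternative took its median over these or some of them. Only local background subtraction could therefore have changed the sign. The kept share was 33.3% with 50% reciprocal overlap, where 5 Wwc1 peaks and the Mob1a peak were lost, and 87.5% of 16 peaks when only as many top-scoring WT peaks as the KO list holds were used. With reciprocal overlap 61.1% of the KO peaks were shared. With summits inside the span only, 21 WT peaks were linked. Without the gene Wwc1, 19 WT and 7 KO peaks were linked. That alternative and local background subtraction were chosen after seeing the data. At the 5 Wwc1 peaks and the Mob1a peak, every overlapping KO peak was less than 50% as wide as the WT peak. A reciprocal overlap of 50% could therefore not be reached there. Why the KO peaks were narrower was not tested. The reduced list holds only the higher-scoring WT peaks by construction. The median log2 ratio stayed between -0.92 (local background) and -0.75 (no subtraction). Single peaks kept their call in 108 of 114 cases, and all 6 changes came with 50% reciprocal overlap. Many of these calls could not change. A WT-only peak cannot become kept under reciprocal overlap or with weaker peaks removed, and reducing the WT list leaves each remaining call as it was. All 51 alternative ratios of single peaks stayed within their counting error. Using the KO peak of largest overlap could alter only the ratio of the Wwc1 peak with 2 KO peaks. Sites below the weakest called summits (28 reads in WT, 29 in KO) cannot be seen. No paired analysis was possible because there is a single list for each genotype. Motifs in peaks outside promoters were not run.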

Other observations

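Several of the strongest peaks around these genes were nearer to a neighbour and so counted for none of the 10. Within 100 kb of Sav1 lay a peak with 182 WT and 130 KO reads linked to Map4k5, itself a gene of an upstream Hippo kinase. Within 100 kb of Mob1a lay 11 such WT peaks, 8 of them linked to Tet3, the strongest with 152 WT and 95 KO reads. Stk4 had one of 126 and 81 reads linked to Wfdc5, and Wwc1 one of 124 and 68 reads linked to Pank3. Within 100 kb of Lats1, which had 1 weak peak of its own, the strongest had 88 WT reads, was linked to Katna1 and was WT-only. Stk3 and Wwc2 had no such neighbouring peak.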
